A study of Mus musculus with 1778 samples.

Results

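The comparison set 10 somite cells against 8 somite cells of 1 plate, given by its number in the cells' names, so that both stages came from the same plate, called the shared plate here. Its members were the cells whose name carries that number, with the stage taken from the labels, at least 50000 reads on genes (spike-ins left out) and at least 1500 detected genes. There were 55 cells of 10 somites and 3.85 cells of 8 somites for each of them, together 15.02% of the 1778 cells of the series, and the filter took out 1 cell of 8 somites. Both groups were single cells of mouse cranial neural crest, from C57BL/6 embryos carrying Wnt1::Cre and Rosa26TdTomato, sorted for the red label and read with Smart-Seq2, a plate method that covers whole transcripts and has no molecular identifiers. Cre runs from Wnt1 regulatory sequence, so the label marks every cell with a history of Wnt1 transcription, dorsal neural tube as well as crest. The labels name no embryo or litter. Each stage was therefore 1 pool of cells, cells were not used as replicates, and the difference between the stages has no replicate check and no test. All intervals are at the 95% level. Those of ratios reflect the counting of reads alone and are too narrow, because these reads are not independent molecules. Those of shares of cells take the cells of 1 pool as independent draws. None covers differences between embryos.

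Neural crest cells form at the border of the neural plate, lose their epithelial junctions and leave the dorsal neural tube as migrating mesenchymal cells. In the head they give rise to neurons, glia and pigment cells, and also to ectomesenchyme, which builds bone, cartilage and connective tissue of the face. Ectomesenchyme is known for its homeobox genes of the Dlx, Alx, Prrx and Msx families.

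Sox10, the SoxE factor that marks migrating crest, was read first as a check of the labelled cell type. It stood at 272.7 RPM at 10 somites and 321.5 RPM at 8 somites, where RPM are reads per 1000000 reads summed over all kept cells, without spike-ins and the ribosomal precursor Rn45s. Single cells ran from 0 over a median of 279.3 to 664.5 RPM at 10 somites and from 0 over a median of 302.4 to 1869 RPM at 8 somites. Cells with at least 10 RPM of Sox10 made up 87.3% at 10 somites (48 of 55, Clopper-Pearson interval 75.5 to 94.7%) and 71.2% at 8 somites (64.6 to 77.2%). Most cells of both stages thus had the marker, and the others, 7 and 61 cells, had less than 10 RPM of it. Wnt1 itself, the ligand gene behind the Cre driver, stood at 27.2 RPM at 10 somites and 39.8 RPM at 8 somites. Its log2 ratio of −0.54 became −0.05 without the highest cell of each stage, which held 729.96 RPM at 10 somites and 2791 RPM at 8 somites.

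The wells of the plate were not alike, and this bears on every ratio given here. The median cell had 562612 reads beyond Rn45s and 9162 detected genes at 10 somites, against 517538 reads and 7645.5 genes at 8 somites, and the lowest cell had 142473 and 146551 reads. Wells with at least 9000 detected genes, called gene-rich here, made up 54.5% of cells at 10 somites (30 of 55, 40.6 to 68.03%) and 20.3% at 8 somites (43 cells, 15.1 to 26.3%). They were frequent in plate rows A, B, O and P and columns 23 and 24, where 26 of 38 wells of 10 somites and 25 of 52 wells of 8 somites were of this kind, against 4 of 17 and 18 of 160 elsewhere. After thinning each cell to 100000 reads, the median gene-rich well had 8243.5 detected genes at 10 somites and 8044 at 8 somites. The median other well had 5964 and 6488. Gene-rich wells also had reads of more marker genes of other cell types. The median gene-rich well had reads of 7 of 17 surface ectoderm genes at 10 somites and 5 at 8 somites, and the median other well 1 and 2. For 15 endothelial genes the medians were 3 and 4 in gene-rich wells, and 1 and 0 in the others. Sox10 passed 10 RPM in 30 of 30 gene-rich wells at 10 somites and 42 of 43 at 8 somites, and in 72% and 64.5% of the others.

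Stage also followed the plate columns, 21 to 24 for 10 somites and 8 to 21 for 8 somites. Spike-ins took a median of 1.64% of counted reads at 10 somites, and at 8 somites 0.282% in the 91 cells of columns 8 to 13 and 2.002% in the cells of columns 14 to 21. The part of well type and plate column in the ratios was not tested. Ratios in wells under 9000 genes (25 cells of 10 somites and 79.7% of those of 8 somites) and against the 8 somite cells of columns 14 to 21 are given beside the main results that differ there. Reads of Y-linked genes were found in 98.2% of cells at 10 somites and 98.1% at 8 somites, and Xist, the RNA of the inactive X chromosome, reached 1 RPM in 2 and 14 cells. The 2 cells of 10 somites and 12 of the 14 of 8 somites were gene-rich wells. Among the 6 somite cells of the same plate, Xist reached 1 RPM in 71 of 72. Y-linked reads were found there in 15 of 23 gene-rich wells and 0 of 49 others. The source of these reads was not tested.

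**Figure D1:**
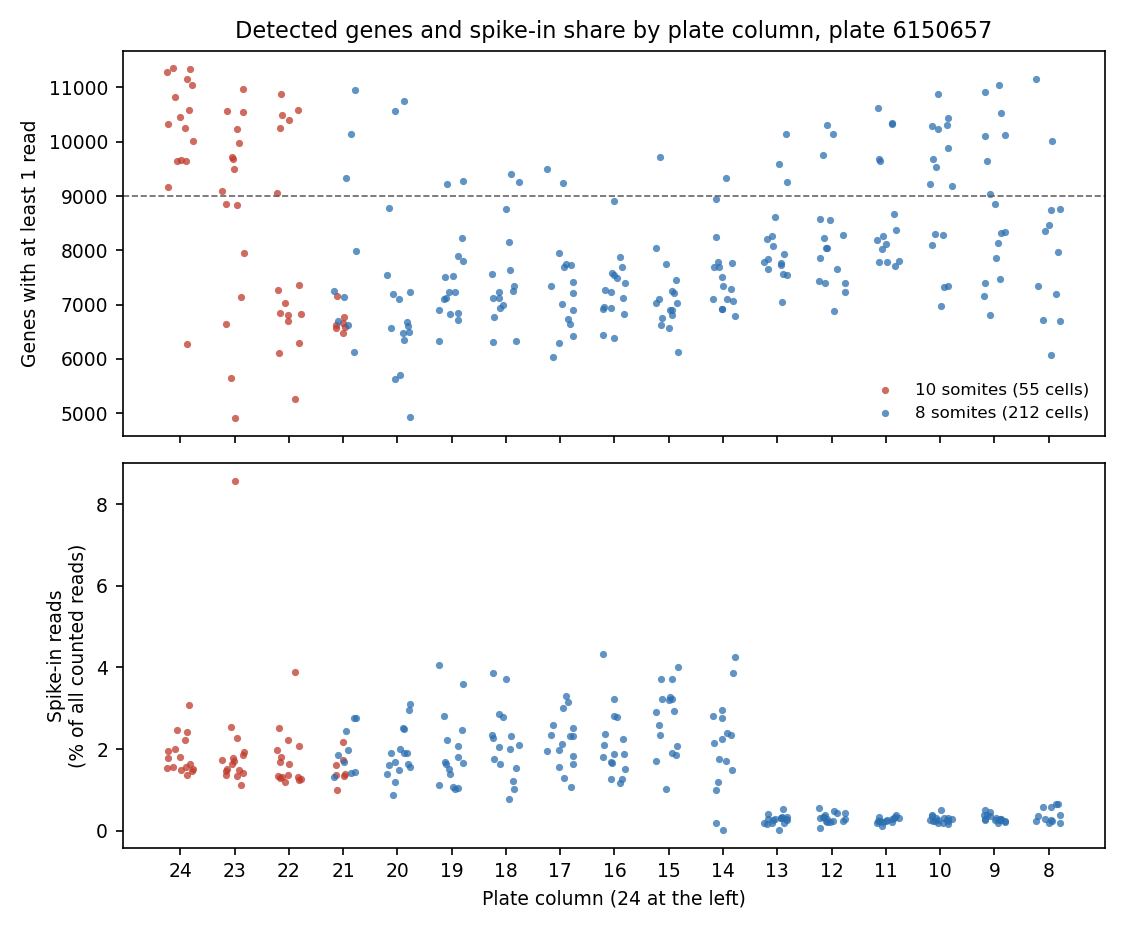
Number of genes with at least 1 read (upper panel) and spike-in reads in percent of all counted reads (lower panel) for each kept cell, by plate column with column 24 at the left. Red points are the 55 cells of 10 somites and blue points the cells of 8 somites, the dashed line marks 9000 genes, and the spike-in share steps within the 8 somite cells at column 14, where the wells of rows A and B lie with the low columns.

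Across all genes the stages were close. Of 7057 genes with at least 20 RPM at either stage, 34 (0.482%) were at least 2-fold higher at 10 than at 8 somites and 60 (0.85%) were at least 2-fold lower. With a minimum of 5 RPM, as used for gene lists, 1.73% of 10047 genes were higher and 3.41% lower, and the median log2 ratio was −0.03. In wells under 9000 genes, 1.89% of 7161 genes were higher and 3.02% lower at 20 RPM, and at 5 RPM 3.92% and 8.19% of 10106 genes. The shares at 5 RPM are the background for all counts of list members below. A 2-fold difference held over all cells, without the highest cell of each gene, in wells under 9000 genes and against columns 14 to 21 alike for 13 of the 34 higher and 37 of the 60 lower genes. Among the 13 were the immediate early genes Fos, Egr1 and Dusp1 and the homeobox gene Alx1. Among the 37 were the secreted factors Fst, Gdf10, Frzb and Cxcl12, the matrix genes Col3a1, Col4a2 and Lum, and the homeobox gene Irx5. These settings all use cells of the shared plate. With 10 somite cells of another plate against the same 8 somite cells, 2 of the 34 and 7 of the 60 stayed past 2-fold. Between other plates, with no shared cell, 17 of the 34 were above 0 and 28 of the 60 below 0. Of all tested genes 53.5% were above 0 there and 46.5% below 0. In such sums, fewer cells with a transcript and less of it per cell cannot be told apart, so shares of cells are given beside them.

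**Figure D2:**
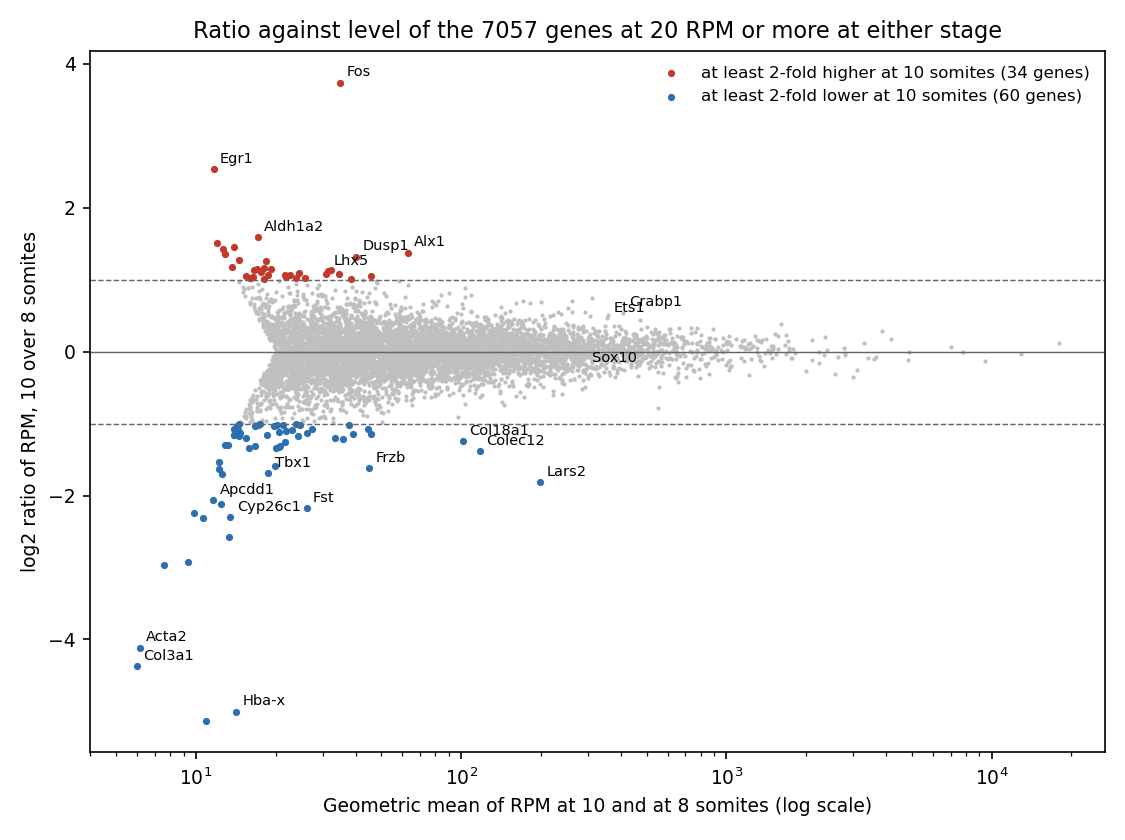
Log2 ratio of RPM, 10 over 8 somites, against the geometric mean of the RPM of both stages (log scale) for the 7057 genes with at least 20 RPM at either stage. Red points mark the 34 genes at least 2-fold higher and blue points the 60 genes at least 2-fold lower at 10 somites, and most genes lie between the dashed lines at a log2 ratio of 1 and −1.

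Several immediate early genes stood higher at 10 somites. Genes of this class encode mostly transcription factors that cells switch on quickly and without new protein synthesis after a growth factor or stress signal, many of them through upstream sites for CREB and serum response factor. The upstream sequences of Fos, Dusp1 and Junb are shown as examples of members that stood higher. They are the 250 bases before the RefSeq start site of Fos (GRCm38.p6, chr12:85473640-85473889, plus strand), Dusp1 (chr17:26508473-26508722, minus strand) and Junb (chr8:84978749-84978998, minus strand), each 5′ to 3′ in the direction of its gene, with TGACGT on either strand in capitals.
Fos: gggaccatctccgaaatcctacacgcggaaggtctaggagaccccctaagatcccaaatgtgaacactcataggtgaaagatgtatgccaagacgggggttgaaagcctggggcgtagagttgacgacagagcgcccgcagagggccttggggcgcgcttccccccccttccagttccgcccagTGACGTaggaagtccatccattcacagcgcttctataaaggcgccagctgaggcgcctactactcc
Dusp1: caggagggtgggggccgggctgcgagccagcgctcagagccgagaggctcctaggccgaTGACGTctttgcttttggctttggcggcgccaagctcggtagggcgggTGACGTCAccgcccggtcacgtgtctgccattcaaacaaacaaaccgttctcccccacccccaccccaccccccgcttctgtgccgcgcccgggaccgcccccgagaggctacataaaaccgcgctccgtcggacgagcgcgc
Junb: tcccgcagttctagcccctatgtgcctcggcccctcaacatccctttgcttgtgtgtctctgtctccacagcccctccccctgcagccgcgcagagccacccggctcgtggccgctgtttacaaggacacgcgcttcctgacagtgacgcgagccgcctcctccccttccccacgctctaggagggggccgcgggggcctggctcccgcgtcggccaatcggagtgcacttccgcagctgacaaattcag
TGACGT, the core of the cAMP response element bound by CREB, began 66 bases before the start of Fos and lay farther upstream of Dusp1, whose window also held the palindrome TGACGTCA. Neither was found in the window of Junb, and the CArG box, the site of serum response factor, was found in none of the 3 windows. Sequence more than 250 bases before the start was not searched, and the windows of Egr1 and Hspa1a were not used here. Of 32851 such windows, 6.47% held TGACGT on either strand, 1.55% TGACGTCA, which contains it, and 1.47% a CArG box.

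Fos, a subunit of the AP-1 transcription factor (chr12:85473890-85477273 in GENCODE vM21 on mm10), stood at 127.5 RPM at 10 somites and 9.58 RPM at 8 somites, a log2 ratio of 3.73, 3.64 to 3.83. Single cells ran from 0 over a median of 5.71 to 3662 RPM at 10 somites and from 0 over a median of 0 to 467.8 RPM at 8 somites. The ranges overlapped, and both groups held cells without a read, but the highest cells were of 10 somites. Without the highest cell of each stage the log2 ratio was 3.20, and in wells under 9000 genes it was 4.39, or 2.63 without their highest cells. A Fos read was found in 54.5% of thinned cells at 10 somites (interval 40.6 to 68.03%) and 12.736% at 8 somites (8.56 to 17.99%), and in wells under 9000 genes in 24% and 7.69%. Egr1, a zinc finger factor of the same response, stood at 27.97 RPM at 10 somites and 4.82 RPM at 8 somites (2.53, 2.38 to 2.69), with highest cells of 531.7 RPM at 10 somites and 123.4 RPM at 8 somites. Its reads were found in 41.8% and 12.736% of thinned cells, and in wells under 9000 genes in 16% and 8.28%. Dusp1, a phosphatase that switches MAP kinases off, stood at 63.5 RPM at 10 somites and 25.4 RPM at 8 somites (1.32, 1.23 to 1.40), with medians over cells of 39.7 and 12.61 RPM. Its log2 ratio in wells under 9000 genes was 1.44, and 0.67 there without the highest cell of each stage. Junb, another AP-1 subunit, stood at 15.5 RPM at 10 somites and 6.42 RPM at 8 somites (1.27, 1.10 to 1.44). The heat shock gene Hspa1a, a chaperone, stood at 18.3 RPM at 10 somites and 7.96 RPM at 8 somites (1.20, 1.05 to 1.36) and had a log2 ratio of 0.85 without the highest cells and 0.59 against columns 14 to 21.

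These 5 were the members at least 2-fold higher among the 16 measured of 22 immediate early and dissociation stress genes, beside 1.73% of all genes, and 0 were lower. The median log2 ratio of the list was 0.55. It was 0.52 in wells under 9000 genes and −0.07 there without the highest cell of each gene, a step that takes a larger share of the 25 cells of 10 somites than of the 8 somite cells and puts the median of all tested genes at −0.13. Jun, the partner of Fos in AP-1, had a log2 ratio of 0.55, and the stress factor Atf3 −0.13. In the 10 somite cells of another plate of the series, Fos stood at 39.1 RPM, Egr1 at 7.71 RPM and Dusp1 at 35.7 RPM, so cells of 1 stage also differed between plates.

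Neural crest specifiers, the transcription factors and receptors that set up the crest, stayed within 2-fold over all cells. Of the 22 measured of 24 listed genes, 0 were at least 2-fold higher and 0 lower, and the median log2 ratio was 0.06. Within wells under 9000 genes 1 was higher and 3 lower, beside 3.92% and 8.19% of all genes, with a median of −0.22. These were Sox6 (1.18), a SoxD factor, on the higher side and the AP-2 factor Tfap2c (−2.89), Pax3 (−1.20) and Foxd3 (−1.07) on the lower. Against columns 14 to 21 0 were higher and 1 lower, the zinc finger factor Snai2 (−1.08, and −0.64 over all 8 somite cells). Foxd3, a forkhead factor of newly formed crest, stood at 4.21 RPM at 10 somites and 7.14 RPM at 8 somites (−0.76, −1.04 to −0.49). Sox9, a SoxE factor of premigratory crest and cartilage, stood at 48.7 RPM at 10 somites and 67.7 RPM at 8 somites (−0.48), and Pax3, a factor of the neural plate border, at 22.1 and 30.5 RPM (−0.46). On the other side lay Ets1, an ETS factor of cranial crest, at 416.7 RPM at 10 somites and 302.98 RPM at 8 somites (0.46, 0.43 to 0.49), with medians over cells of 399.5 and 249.04 RPM. Mef2c, a MADS-box factor with a role in facial crest, stood at 175.04 RPM at 10 somites and 114.5 RPM at 8 somites (0.61, 0.57 to 0.66). Against columns 14 to 21 the log2 ratio of Ets1 was 0.14 and that of Mef2c 0.46. After thinning, a Sox9 read was found in 81.8% and 71.2% of cells at 10 and 8 somites, Ets1 in 90.9% and 77.8%, the mesenchymal factor Twist1 in 74.5% and 59.4% and Foxd3 in 21.8% and 24.1%. The shares in wells under 9000 genes were 68% and 65.7% for Sox9, 80% and 72.2% for Ets1, 68% and 55.6% for Twist1 and 12% and 21.3% for Foxd3. All gene-rich wells of both stages (30 of 30 and 43 of 43) had an Ets1 read, and the shares there were 93.3% and 93.02% for Sox9, 80% and 74.4% for Twist1 and 30% and 34.9% for Foxd3. Of 24 measured genes of epithelial-mesenchymal transition and migration, 0 were higher and 1 lower, the collagen receptor Ddr1 (−1.23), with a median of −0.14.

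Ectomesenchyme genes lay on both sides. Alx1, a homeobox factor of frontonasal crest (chr10:102998707-103030215), stood at 101.4 RPM at 10 somites and 39.2 RPM at 8 somites (1.37, 1.31 to 1.44). Single cells ran from 0 over a median of 57.5 to 661.7 RPM at 10 somites and from 0 over a median of 4.57 to 588.4 RPM at 8 somites. The ranges overlapped, and the median cell of 10 somites lay above that of 8 somites. A read of Alx1 was found in 72.7% of thinned cells at 10 somites (interval 59.04 to 83.9%) and 47.6% at 8 somites (40.8 to 54.6%), and in wells under 9000 genes in 48% and 42.01%, where the log2 ratio was 1.40. Prrx1, a paired-type factor of facial and limb mesenchyme, stood at 15.9 RPM at 10 somites and 8.72 RPM at 8 somites (0.86), and Dlx2, a homeobox factor of the pharyngeal arches, at 79.9 and 47.1 RPM (0.76), both less than 2-fold higher. A Dlx2 read was found in 83.6% of thinned cells at 10 somites (interval 71.2 to 92.2%) and 55.7% at 8 somites (48.7 to 62.5%), and in wells under 9000 genes in 68% and 47.3%. Pdgfra, the PDGF receptor of facial mesenchyme, had a ratio of 0.00. The collagens Col3a1 and Col1a1, described with the matrix, stood lower. Of 18 measured members of 28, 2 were higher and 3 lower, with a median of 0.20, and in wells under 9000 genes 3 were higher and 5 lower. The 10 somite cells of the other plate had 67.96 RPM of Alx1, between the values of both stages on the shared plate.

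Several genes with the largest lower ratios encode secreted or membrane modulators of signalling. Fst, follistatin, an antagonist of activin and BMP ligands (chr13:114452290-114458951), stood at 12.3 RPM at 10 somites and 55.6 RPM at 8 somites (−2.18, −2.34 to −2.03). Single cells ran from 0 over a median of 0 to 235.99 RPM at 10 somites and from 0 over a median of 0 to 1649.8 RPM at 8 somites. The median cell had no read at either stage, and the highest cells were of 8 somites. A read was found in 25.5% of thinned cells at 10 somites (interval 14.67 to 39.003%) and 34.9% at 8 somites (28.5 to 41.7%), and in wells under 9000 genes in 4% and 27.2%. Gdf10, a ligand of the TGFb superfamily, stood at 4.51 RPM at 10 somites and 21.3 RPM at 8 somites (−2.24, −2.50 to −1.99), with highest cells of 50.98 and 627.4 RPM. Frzb, a secreted Wnt antagonist, stood at 25.6 RPM at 10 somites and 78.7 RPM at 8 somites (−1.62, −1.73 to −1.51). A Frzb read was found in 50.9% and 51.9% of thinned cells, in 76.7% and 86.05% of gene-rich wells and in 20% and 43.2% of the others, and the highest cells had 130.1 RPM at 10 somites and 1480.0 RPM at 8 somites. Apcdd1, a membrane inhibitor of Wnt signalling, stood at 5.67 RPM at 10 somites and 23.8 RPM at 8 somites (−2.07, −2.30 to −1.85), and Smoc1, a secreted modulator of BMP signalling, at 10.61 and 26.4 RPM (−1.32). Colec12, a collectin scavenger receptor, stood at 72.8 RPM at 10 somites and 189.6 RPM at 8 somites (−1.38, −1.45 to −1.32). Its cells ran from 0 over a median of 66.2 to 328.3 RPM at 10 somites and from 0 over a median of 83.05 to 2339 RPM at 8 somites. A read was found in 80% and 68.9% of thinned cells, in 29 of 30 and 43 of 43 gene-rich wells and in 60% and 60.9% of the others.

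In cells with at least 10 RPM of Sox10, the log2 ratio stayed past 2-fold for Apcdd1 (−2.40) and Colec12 (−1.07). It was −0.48 for Fst, −0.87 for Gdf10, −0.81 for Frzb and −0.45 for Smoc1. On the other plate the 10 somite cells had 24.4 RPM of Fst, 4.10 RPM of Gdf10, 56.5 RPM of Frzb, 16.8 RPM of Apcdd1 and 131.5 RPM of Colec12, each below the 8 somite level of the shared plate, a comparison that uses the same 8 somite cells. Of the 15 cells of 8 somites on a further plate, 13 were gene-rich wells. These 15 cells had 15.61 RPM of Fst, below those 10 somite cells. Above the 10 somite cells they had 23.02 RPM of Gdf10, 117.5 RPM of Frzb, 31.2 RPM of Apcdd1 and 137.98 RPM of Colec12.

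**Figure D3:**
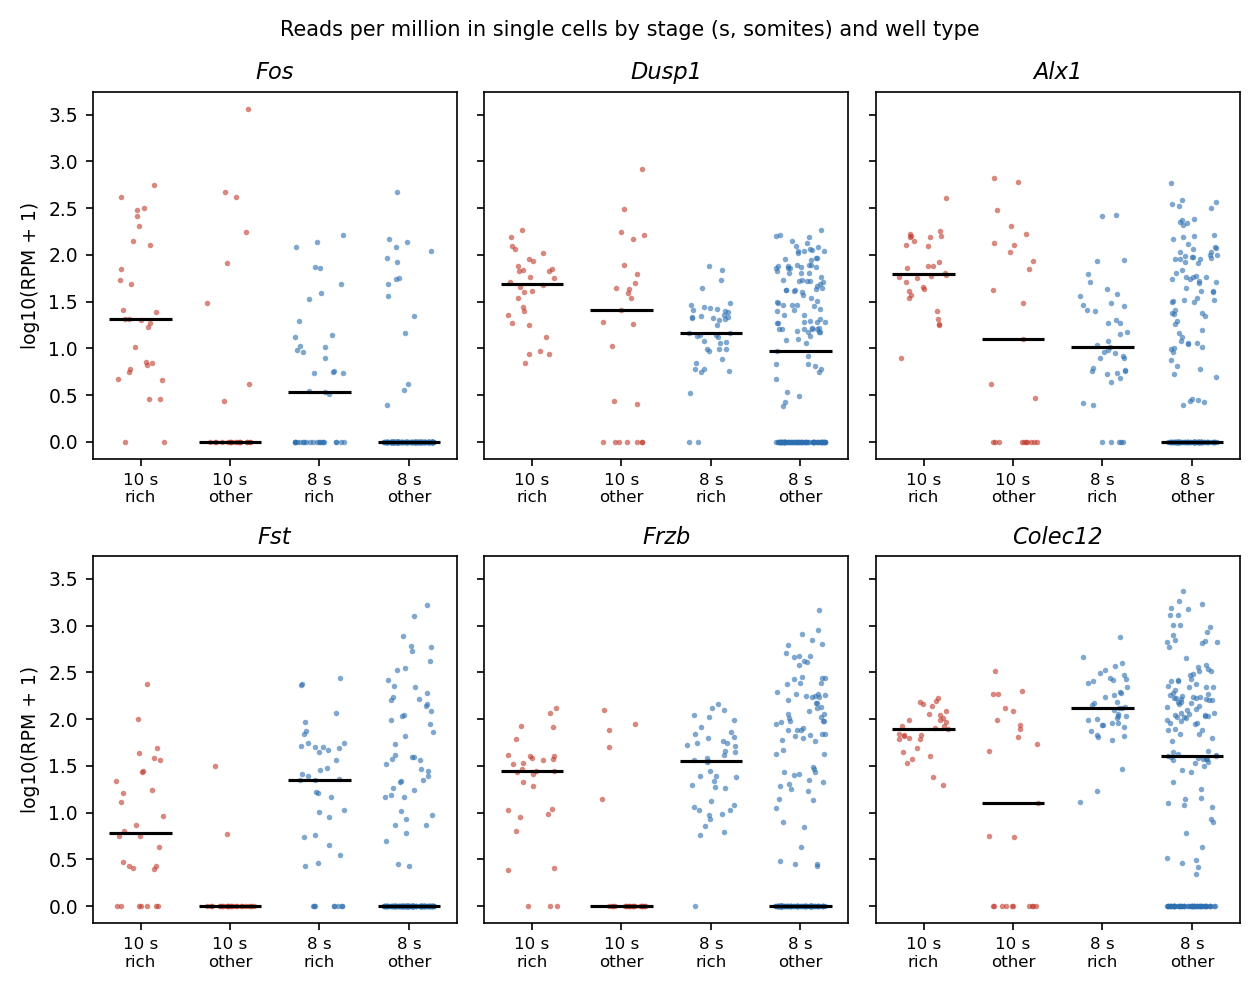
RPM per cell on a log10(RPM + 1) scale for 6 genes, in wells with at least 9000 genes (rich) and under 9000 genes (other), with 10 somites (10 s, red, 30 and 25 cells) left of 8 somites (8 s, blue, 43 rich wells and the rest). Black bars are medians over cells, and Fst, Frzb and Colec12 show cells of 8 somites above the highest cell of 10 somites.

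Among matrix and contractile genes a few members were far lower at 10 somites. Col3a1, a fibrillar collagen of mesenchyme, stood at 1.29 RPM at 10 somites and 27.1 RPM at 8 somites (−4.37, −4.89 to −3.94), with reads in 5.45% and 16.04% of thinned cells and highest cells of 25.2 and 1293 RPM. Col1a1, its partner in fibrils, stood at 0.928 and 5.35 RPM (−2.50). Acta2, smooth muscle actin, stood at 1.46 RPM at 10 somites and 25.5 RPM at 8 somites (−4.11, −4.59 to −3.70), with reads in 10.9% and 18.4% of thinned cells and highest cells of 14.8 and 2374 RPM. Tagln, transgelin, which binds actin in smooth muscle, stood at 0.365 and 5.10 RPM (−3.74). In wells under 9000 genes Acta2 had 0.0784 and 24.58 RPM and Col3a1 0 and 29.7 RPM, so nearly all reads at 10 somites lay in gene-rich wells. The basement membrane chains Col4a2 (−1.31, 13.2 and 32.7 RPM), Col18a1 (−1.25, 65.8 and 156.2 RPM) and Lama5 (−1.14) were also at least 2-fold lower. Fibronectin, Fn1, had a log2 ratio of −0.35, and the nidogen Nid1, a linker of basement membranes, 0.63. Of 23 measured matrix genes 0 were higher and 5 lower, beside 3.41% of all genes, with a median of −0.35. Of 19 actin and contractile genes 0 were higher and 2 lower, with a median of −0.10. The 10 somite cells of the other plate had 28.8 RPM of Col3a1 and 8.52 RPM of Acta2, above those of the shared plate. For Col3a1 this was also above the 27.1 RPM of the 8 somite cells, so no decrease was seen with that plate. For Acta2 it was below their 25.5 RPM.

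Retinoic acid genes lay on both sides. The enzymes that break retinoic acid down were lower, Cyp26a1 at 0.331 RPM at 10 somites and 9.85 RPM at 8 somites (−4.82, −5.96 to −4.01) and Cyp26c1 at 6.06 and 29.9 RPM (−2.30, −2.52 to −2.08), with Cyp26a1 reads in 5.45% and 12.736% of thinned cells. Stra6, a receptor for retinol uptake, stood at 5.601 and 12.8 RPM (−1.18). Aldh1a2, the enzyme that makes retinoic acid in the early embryo, was higher at 29.6 RPM at 10 somites and 9.83 RPM at 8 somites (1.59, 1.46 to 1.72). Its reads at 10 somites lay in gene-rich wells, with thinned reads in 53.3% of gene-rich wells and 0% of others, where 0 of 25 cells has a Clopper-Pearson upper limit of 13.72% and, taken as at most 3 cells, allows a share of up to 12%. At 8 somites they were found in 32.6% of gene-rich wells and 9.47% of others. In wells under 9000 genes Aldh1a2 had 0.627 and 10.8 RPM, the opposite direction. Crabp1, a retinoic acid binding protein of migrating crest, stood at 492.3 RPM at 10 somites and 338.5 RPM at 8 somites (0.54). Of 11 measured members 1 was higher and 3 lower, with a median of −0.59, and in wells under 9000 genes 0 were higher and 5 lower.

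Genes of the other signalling pathways had few differences of 2-fold. Of 13 measured Wnt targets and inhibitors 0 were higher and 2 lower, Apcdd1 and the R-spondin receptor Lgr5 (−1.26), with a median of −0.21. Of 15 FGF and ERK feedback genes 0 were higher and 0 lower, with a median of 0.02, and Spry1, an inhibitor of receptor tyrosine kinase signalling, came nearest to 2-fold at 52.6 RPM at 10 somites and 28.4 RPM at 8 somites (0.89). Of 13 BMP and TGFb genes 0 were higher and 2 lower, the ligand Tgfb2 (−1.73) and the inhibitory Smad6 (−1.26), with a median of 0.04. Among 10 Notch genes 0 were higher and 1 lower, the neural target Hes5 (−1.60, and −0.40 against columns 14 to 21). Of 8 Hedgehog genes 1 was higher and 0 lower, the co-receptor Cdon at 23.4 and 11.4 RPM (1.03, and 0.68 without the highest cells). Among 20 Eph, ephrin and guidance genes 0 were higher and 1 lower, the ephrin Efnb3 (−1.11), with a median of −0.31, and in wells under 9000 genes 0 were higher and 7 lower.

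Genes of the anterior neural tube stood lower at 10 somites, and those of its other regions lay on both sides. All 11 measured anterior and midbrain genes had ratios below 0, with a median of −0.79 (−1.35 in wells under 9000 genes). In those wells 7 of them were at least 2-fold lower, beside 8.19% of all genes. Over all cells 4 were, beside 3.41% of all genes. The lower ones were Wnt8b, a ligand of the forebrain with 1 read in 1 cell at 10 somites against reads in 31 cells at 8 somites, the midbrain-hindbrain boundary genes Gbx2 (−1.83, 3.745 and 13.4 RPM) and Fgf8 (−1.30), and the forebrain gene Six3 (−1.17, and −0.03 against columns 14 to 21). Otx2, a homeobox factor of forebrain and midbrain, stood at 24.4 RPM at 10 somites and 39.2 RPM at 8 somites (−0.68). Of 16 neuroepithelial genes 2 were higher and 3 lower, with a median of −0.40 that was 0.14 against columns 14 to 21. The lower ones included Hes5 and the dorsal Wnt ligand Wnt3a (−1.07), and the higher ones Lhx5 and Dbx1. Lhx5, a LIM homeobox gene of the neural tube, stood at 46.1 RPM at 10 somites and 21.3 RPM at 8 somites (1.11, and 0.61 without the highest cells), and Dbx1, a homeobox gene of neural progenitors, at 13.3 and 4.43 RPM (1.59). Of 8 hindbrain and Hox genes 2 were higher and 2 lower, and in wells under 9000 genes 0 were higher and 5 lower. The higher ones were Egr2, a factor of the hindbrain segments (1.65, and −0.82 in wells under 9000 genes), and Hoxa2, which patterns the second arch (1.04), and the lower ones included Cyp26c1. Reads of Hoxa2 at 10 somites came from 17 of 30 gene-rich wells and 0 of 25 others. Of 6 measured neuron and glia genes 0 were higher and 0 lower, with a median of −0.50.

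At 10 somites markers of epithelium depended on the well type. The summed level of the epithelial junction genes was 324.1 RPM in wells under 9000 genes and 447.5 RPM over all cells at 10 somites, and 523.99 and 500.2 RPM at 8 somites. Of 17 measured epithelial junction genes 1 was higher and 3 lower, with a median of −0.20, but in wells under 9000 genes 0 were higher and 11 lower, beside 8.19% of all genes lower there, with a median of −4.35. The higher one over all cells was Grhl3 (1.85, and −3.26 in wells under 9000 genes), a factor of surface ectoderm, and the lower ones Ocln (−1.47), a tight junction protein, Esrp1 (−1.06), a splicing factor of epithelia, and Epcam. Cdh1, E-cadherin, had 23.99 RPM at 10 somites and 14.70 RPM at 8 somites over all cells, and 0.549 and 15.8 RPM in wells under 9000 genes. Thinned Cdh1 reads were found in 66.7% of gene-rich wells and 4% of others at 10 somites and in 18.61% of gene-rich wells and 5.92% of others at 8 somites. Epcam, an adhesion molecule of epithelia, had 16.73 RPM at 10 somites and 33.6 RPM at 8 somites (−1.01), and 0.235 and 33.2 RPM in wells under 9000 genes. Of 12 measured surface ectoderm genes 1 was higher and 2 lower, with a median of 0.09, and in wells under 9000 genes 0 were higher and 10 lower, with a median of −2.77. Foxi2 (−1.54), a forkhead factor of ectoderm, was the other lower member beside Epcam. Their summed level was 477.5 RPM at 10 somites and 469.4 RPM at 8 somites.

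Of 5 measured head mesoderm genes 0 were higher and 4 lower, among them Foxc2, Tbx1 and Eya1 (−1.02), with a median of −1.68 (−0.94 against columns 14 to 21) and a summed level of 48.6 RPM at 10 somites and 117.8 RPM at 8 somites. Foxc2, a forkhead factor of mesenchyme, stood at 1.09 RPM at 10 somites and 9.85 RPM at 8 somites (−3.15), and Tbx1, a T-box factor of the pharyngeal region, at 10.4 and 33.6 RPM (−1.68, and −0.52 against columns 14 to 21). Of 13 endothelial genes 1 was higher and 1 lower, the adhesion receptor Pecam1 (1.43, reads in 10.9% and 8.02% of thinned cells) and the factor Sox7 (−1.89), with a summed level of 239.3 RPM at 10 somites and 276.1 RPM at 8 somites. Of 8 endoderm genes 1 was higher and 3 lower, with Nkx2-1 (2.005) higher from 3.64% and 2.83% of thinned cells, and the forkhead genes Foxa2 (−1.95) and Foxa1 (−1.47), also the lower ones of 3 notochord and floor plate genes, and the hormone gene Trh (−2.002) lower. The 3 measured globins were lower, Hba-x, an embryonic globin, at 2.49 RPM at 10 somites and 80.2 RPM at 8 somites, but 10 of the 12 cells of 8 somites with its reads were gene-rich wells, and against columns 14 to 21 the median log2 ratio of the 3 was 4.76. Among 11 cardiac genes 1 was measured, Isl1 (−0.96). The part of these cell types in the other results was not tested.

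Cell cycle and metabolic genes stayed within 2-fold over all cells. Of 30 S phase genes 0 were higher and 0 lower, and of 32 G2M genes 0 were higher and 0 lower, with medians of 0.08 and −0.11. The same counts of 0 held for 21 glycolysis and hypoxia genes (median −0.09), 24 oxidative phosphorylation genes (−0.11), 14 p53 targets (0.20), 8 early embryo genes (−0.31) and 4 Y-linked genes (0.29). In wells under 9000 genes 0 were higher and 3 lower of the glycolysis and hypoxia genes, 1 was higher and 2 lower of the p53 targets and 0 were higher and 1 lower of the early embryo genes. Lin28b, an RNA-binding protein of early embryos, stood at 218.3 RPM at 10 somites and 134.5 RPM at 8 somites (0.70, and 0.26 against columns 14 to 21). Of 14 imprinted genes 0 were higher and 3 lower, Phlda2 (−1.84), Plagl1 (−1.68) and the long non-coding RNA H19 (−1.02), with a median of −0.06. All 28 ribosomal protein genes had ratios below 0, with a median of −0.32, and against columns 14 to 21 the median was −0.04. Lars2, a mitochondrial leucyl-tRNA synthetase, also had a smaller difference against columns 14 to 21, but it stayed lower at 10 somites. It stood at 105.7 RPM at 10 somites, against 372.1 RPM over all 8 somite cells and 209.6 RPM in those of columns 14 to 21, log2 ratios of −1.82 and −0.99.

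**Figure D4:**
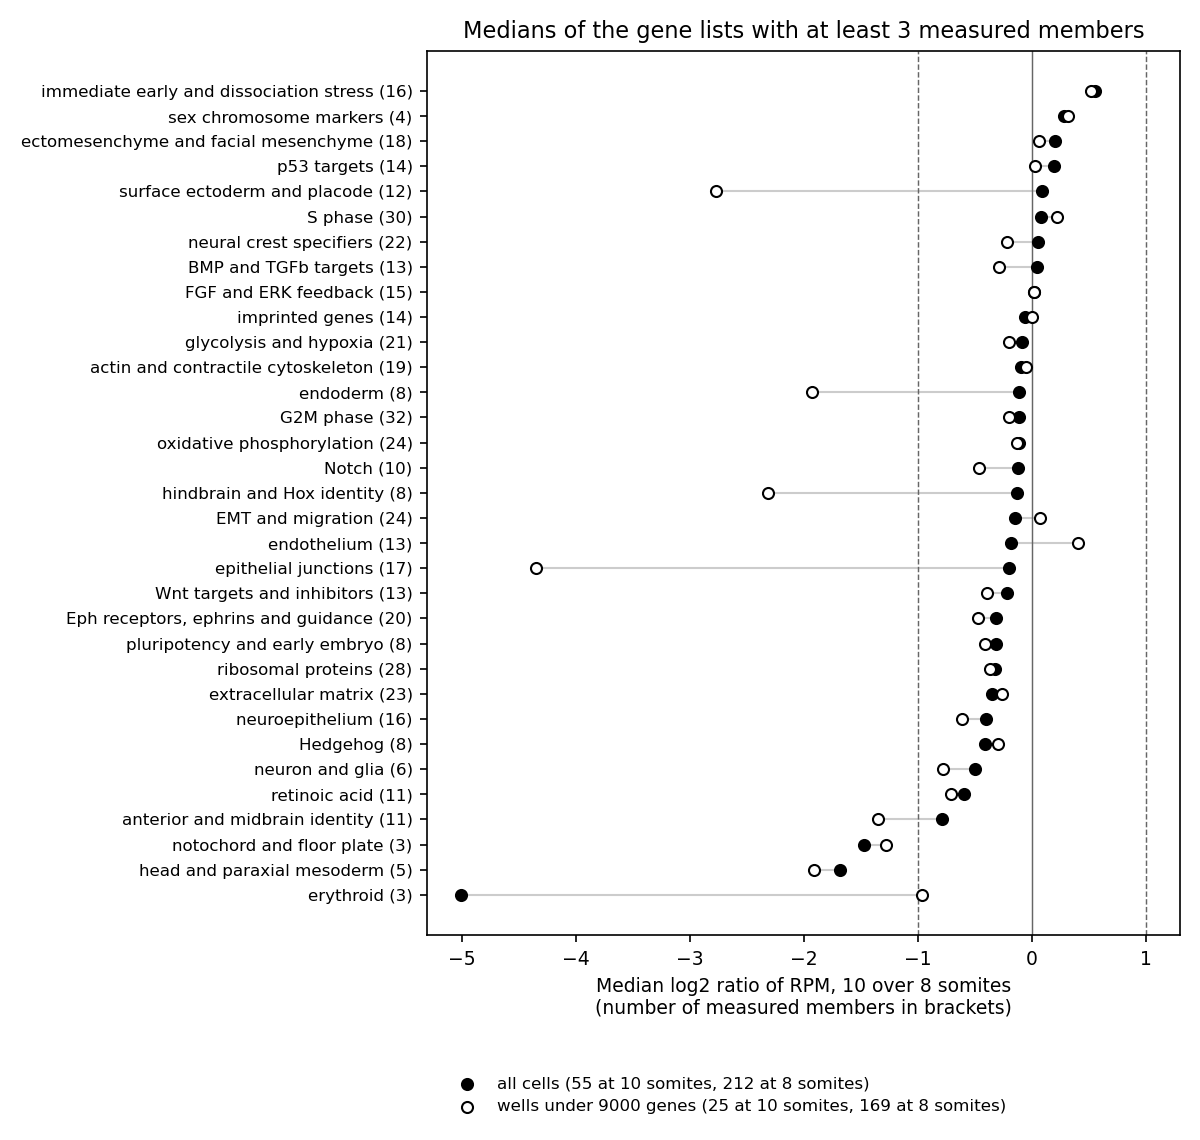
Median log2 ratio of RPM, 10 over 8 somites, of each gene list with at least 3 measured members (number in brackets), over all cells (filled) and over wells under 9000 genes (open). The medians of epithelial junctions, surface ectoderm, hindbrain and endoderm lie between −0.20 and 0.09 over all cells and between −4.35 and −1.93 in wells under 9000 genes.

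Other genes with higher ratios were the bicarbonate transporter Slc4a8 (1.51), the lipid raft protein Rftn2 (1.43), the zinc finger genes Zfp119b (1.35), Zfp324 (1.16) and Zfp286 (1.15), the Tudor domain gene Tdrkh (1.27), the ubiquitin ligase Siah2 (1.17) and the histone methyltransferase Ezh1 (1.14). The other lower ones were Zfp27 (−1.64), Glipr2 (−1.59), Vat1l (−1.54), the homeobox gene Irx5 (−1.34), the kinase Stk11 (−1.34, and −0.77 in wells under 9000 genes) and Epb41l4a (−1.33).

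In the cells with at least 10 RPM of Sox10, 47 of 6933 genes (0.678%) were at least 2-fold higher at 10 somites and 30 (0.433%) lower, where over all cells the lower genes were more. Named as higher in the Sox10-positive cells were Fos (3.80), Egr1 (2.47), Aldh1a2 (2.46), Tdrkh (1.92), Ezh1 (1.49), the protease Prss23 (1.48) and Zfp119b (1.45). Thinned Aldh1a2 reads at 10 somites were found in 16 of 30 gene-rich wells and 0 of 25 others. The 8 named as lower were Vat1l (−1.66), Zfp27 (−1.63), the cartilage collagen chain Col9a3 (−1.53), Lars2 (−1.52), the phosphatase subunit Ppp2r2b (−1.42), Stk11 (−1.41), the insulin receptor substrate Irs2 (−1.38) and Tlnrd1 (−1.35). Sox10, which set these cells apart, had a log2 ratio of −0.24 over all cells.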

How the data were processed

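Single cells of 4, 6, 8 and 10 somite embryos were read with Smart-Seq2, and the 10 and 8 somite cells of plate 6150657 are compared here (55 and 212 kept cells, 25 and 169 of them in wells under 9000 genes, 48 and 151 with at least 10 RPM of Sox10, and 121 of the 8 somite cells in columns 14 to 21). Depth was 562612 and 517538 reads in the median cell. The other 10 somite plate compared here is 6150662 (379 cells, 15.04% gene-rich wells). A further plate, 6150663, gave 15 cells of 8 somites (86.7% gene-rich wells). Plate 7350657 also held 12 kept cells of 10 somites, 83.3% of them gene-rich wells, and its values are not given. The authors deposited whole-number read counts per gene and cell, with 92 spike-ins. Reads were demultiplexed with bcl2fastq 2.18 and aligned to mm10 with STAR 2.6, per the submitters' processing notes, and no source used here names the read counter or annotation. Plate, row and column were read from the cells' names. Gene coordinates are those of GENCODE vM21, matched by symbol, and upstream sequences are from RefSeq (GRCm38.p6).

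For each stage the counts of kept cells were summed without spike-ins and Rn45s, whose share of a cell's reads varies, and scaled to RPM. Log2 ratios were taken after adding 0.5 reads, with a floor of 3 reads in place of a sum of 0 and no ratio where both sums were at most 3, and exact 95% intervals cover counting error only. Genes entered with at least 20 RPM at either stage, members of the 34 gene lists with at least 5 RPM, and a difference was counted from 2-fold. Shares of cells were taken after thinning to 100000 reads per cell, with Clopper-Pearson intervals. Doublets were not called. The genes named are those with at least 20 RPM, a 2-fold ratio also without the highest cell and reads in at least 25% of thinned cells of the higher stage (14 in each direction), up to 4 per list with the largest ratios, 8 in each direction among Sox10-positive cells, and Sox10 and Wnt1. Some genes that meet these rules are not reported here. Further list members of interest were named after their values were seen. Members and lists were chosen with earlier results of these data known. Calculations used Python 3.11.15 with numpy 2.4.6, pandas 2.3.3 and scipy 1.17.1, with edgeR 4.0.16 for TMM scaling factors only. The ratio was tested on simulated data, and the intervals were not.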

Additional observations from a re-analysis of the deposited data

How the results depend on the processing

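No paired analysis was possible because the labels' cell numbers pair nothing between stages and no result comes from a test. Of the genes tested, 0.482% and 0.850% were at least 2-fold higher and lower over all cells. These shares were 0.112% and 0.429% with Rn45s in the totals, which takes genes below the minimum, 1.73% and 3.41% with a minimum of 5 RPM, 0.139% and 0.300% with 50 RPM and 7.70% and 13.70% with none. They were 0.247% and 1.08% without the highest cell of each gene, 0.678% and 0.433% in Sox10-positive cells, 10.75% and 13.61% in the other 7 and 61 cells and 0.794% and 1.15% against columns 18 to 21. With the 10 somite cells of the other plate they were 0.356% and 0.256% against the same 8 somite cells, and 4.56% and 5.86% against the 15 cells of 8 somites on a further plate. Under the alternatives chosen after seeing the data they were 1.89% and 3.02% in wells under 9000 genes, 1.81% and 2.97% there within columns 14 to 24, 0.641% and 5.70% there without the highest cell of each gene, and 0.427% and 0.797% against columns 14 to 21. Scaling by the median gene, by TMM and by cell means and 5 added reads kept both counts of genes within 1.5 times. The genes behind the counts changed more: with cell means, 22 of the 34 higher and 44 of the 60 lower genes stayed past 2-fold. With TMM 34 and 49 did. The stricter cell filter kept the same cells, and leaving the filter out added only the 8 somite cell it had removed. These cell filters could therefore not show whether the counts depend on the filter. The causes were not tested.

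Without the highest cell of each gene, these named genes fell under 2-fold: Cdon (0.68), Hoxa2 (0.59), Hspa1a (0.85), Lhx5 (0.61), Wnt3a (−0.999). Against columns 14 to 21 these did: Col18a1 (−0.99), Efnb3 (−0.97), Eya1 (−0.94), Fgf8 (−0.66), Foxi2 (−0.91), H19 (−0.76), Hes5 (−0.40), Hspa1a (0.59), Lama5 (−0.99), Lars2 (−0.99), Phlda2 (−0.98), Six3 (−0.03), Stk11 (−0.82), Stra6 (−0.73), Tbx1 (−0.52), Trh (0.47), Wnt3a (−0.72).

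Among the named genes and the list medians past 2-fold over all cells, log2 ratios of the opposite sign were as follows. Medians nearer 0 are not listed. In wells under 9000 genes these were Aldh1a2 (−4.01), Egr2 (−0.82), Grhl3 (−3.26) and Hoxa2 (−4.44). Within columns 14 to 24 there, they were the erythroid list (4.75), Aldh1a2 (−3.24), Egr2 (−1.36), Grhl3 (−3.61), Hba-x (4.75), Hoxa2 (−4.17) and Trh (0.71). Without the highest cell of each gene there, they were the erythroid list (2.27), Aldh1a2 (−5.99), Cdon (−0.48), Ezh1 (−0.12), Grhl3 (−2.95), Hba-x (1.19), Hoxa2 (−3.87), Hspa1a (−1.10) and Pecam1 (−0.87). Against columns 14 to 21 they were the erythroid list (4.76), Hba-x (4.67) and Trh (0.47), and against columns 18 to 21 the erythroid list (4.32), Hba-x (4.76), Hes5 (0.40), Six3 (2.65) and Wnt3a (0.58). In Sox10-positive cells they were Dbx1 (−0.44), Fgf8 (1.40) and Nkx2-1 (−2.16), and in Sox10-low cells Aldh1a2 (−4.15), Alx1 (−3.13), Cdon (−4.77), Hoxa2 (−2.21), Irs2 (0.13), Siah2 (−2.66), Tlnrd1 (0.15) and Trh (0.77). With the other 10 somite plate against the same 8 somite cells they were Aldh1a2 (−0.24), Col3a1 (0.0859), Egr2 (−1.07), Foxa1 (1.19), Grhl3 (−0.47), Lhx5 (−0.52), Pecam1 (−0.69), Slc4a8 (−0.28), Smad6 (0.11), Tbx1 (0.13), Tdrkh (−0.19) and Tlnrd1 (0.13). With that plate against the 15 cells of the further plate they were the head and paraxial mesoderm list (1.76), the notochord and floor plate list (0.60), Acta2 (0.71), Aldh1a2 (−2.15), Cdon (−1.40), Col3a1 (6.18), Cyp26a1 (0.43), Efnb3 (0.56), Egr2 (−3.81), Epcam (1.57), Esrp1 (1.66), Eya1 (0.0449), Ezh1 (−0.79), Foxa1 (0.95), Foxa2 (0.60), Foxc2 (1.26), Foxi2 (1.30), Fst (0.64), Glipr2 (0.65), H19 (1.65), Hoxa2 (−1.37), Lhx5 (−2.10), Ocln (3.17), Phlda2 (0.25), Plagl1 (0.37), Ppp2r2b (0.29), Siah2 (−0.17), Slc4a8 (−1.94), Smad6 (3.60), Sox7 (3.82), Stk11 (0.70), Tagln (1.38), Tbx1 (2.71), Tdrkh (−0.0318), Tlnrd1 (0.56), Vat1l (1.59) and Zfp27 (4.82). Gene-rich wells made up 15.04% of the cells of the other 10 somite plate and 86.7% of the 15 cells of the further plate. The small cell numbers (7, 15 and 25) and single high cells limit these values, and no depth of reading replaces further embryos.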
